A study of Homo sapiens with 6 samples.

Results

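The genes described here encode proteins of the red-cell membrane and of the skeleton beneath it. They are SLC4A1, ANK1, EPB42, SPTB, EPB41, GYPC, GYPB and GYPE, taken by symbol: 8 of the 26485 gene symbols with whole-number read counts and 8 of the 28069 genes with estimated counts. All 8 passed the filter on low counts in both sets. RNA-seq was done on K562, a long-established line from a human chronic myeloid leukaemia, with erythroid and megakaryocytic features, grown in IMDM with serum and antibiotics. The series concerns what the zinc-finger protein ZNF410 does for gene expression. Control libraries came from cells labelled WT that carried the guide sgNeg2, and knockout libraries came from cells labelled ZNF410 KO that carried sgRNA1 or sgRNA2 against ZNF410. Each of these 3 groups had 2 libraries, numbered replicate 1 and replicate 2. The labels do not say what the number stands for, whether replicates came from separate cultures, or whether an edited line was 1 clone or a pool, so p-values measure only the spread between these libraries.

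The red-cell membrane keeps its shape through a mesh of spectrin on its inner face. Ankyrin, encoded by ANK1, ties beta-spectrin (SPTB) to the anion exchanger of the membrane (SLC4A1), and the EPB42 product binds both partners of that link. At the junctions of the mesh, the EPB41 product joins spectrin to actin and to glycophorin C (GYPC). GYPB encodes the glycophorin that carries the S and s blood group antigens, and GYPE is a related gene. K562 cells are long known to make glycophorin and embryonic and fetal globins.

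Gene positions follow the RefSeq annotation on GRCh38, and exon overlaps and transcript sequences follow GENCODE 29. SLC4A1 lies at chr17:44248390-44268135 and EPB42 at chr15:43197227-43225737. SPTB lies at chr14:64746283-64879907 and EPB41 at chr1:28887100-29120041, while GYPC stands alone at chr2:126656158-126696667. GYPE at chr4:143870864-143905559 and GYPB at chr4:143995188-144019380 lie on the same chromosome. Between the GENCODE 29 transcripts of these genes, 1.05% of all 50-base words of GYPB and 1.15% of those of GYPE were shared. In GYPC it was 0. The stretches of 209 bases directly upstream of the outermost GYPB start (chr4:144019381-144019589, minus strand) and at matching positions of GYPE (chr4:143905601-143905809, minus strand) are printed because they show how alike both genes are there, with the bases that differ in capitals.
GYPB: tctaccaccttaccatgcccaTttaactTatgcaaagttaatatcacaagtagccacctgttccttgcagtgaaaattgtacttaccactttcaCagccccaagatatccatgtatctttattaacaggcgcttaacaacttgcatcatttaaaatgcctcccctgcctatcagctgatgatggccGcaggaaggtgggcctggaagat
GYPE: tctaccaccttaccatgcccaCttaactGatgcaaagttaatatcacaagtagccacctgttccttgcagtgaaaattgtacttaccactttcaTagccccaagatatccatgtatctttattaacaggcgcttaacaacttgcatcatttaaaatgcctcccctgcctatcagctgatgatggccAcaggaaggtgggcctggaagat
They differed at 4 positions, an identity of 98.1%. The stretch lies outside the positions given above for both genes, and whether GENCODE exons reach into it was not checked. Its identity is no measure of how many reads the genes share. GYPB and GYPE, as related genes, are described from estimated counts, which share out reads that match more than 1 transcript, and how those reads were shared out limits both.

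Of the 8 genes, 6 had start-site windows in the RefSeq promoter table of GRCh38.p14, with 9 windows in all. The letters AGATAA, a form of the site bound by GATA factors, or their reverse complement TTATCT stood within 250 bases upstream of at least 1 start of 4 of the 6, EPB42, SPTB, GYPB and GYPE. Counted by window they stood in 4 of 9, and over all 35116 windows of the table the share was 9.17%. Those of GYPB and GYPE stood at the same place of near-identical upstream sequence. CACCC or GGGTG, a form of the site bound by KLF factors, stood in 5 of the 9 and in 54.7% of all windows. A match of letters is a description and shows no binding. The EPB42 stretch (chr15:43221126-43221268, minus strand, 143 bases outside annotated exons) and the SPTB stretch (chr14:64879908-64880157, minus strand, 250 bases) are shown as examples from a scarce and an abundant transcript, with AGATAA in capitals. The EPB42 start used lies inside the gene and is not its outermost start. The 107 bases next to that start, which hold another AGATAA, are left out because annotated exons reach into them.
EPB42: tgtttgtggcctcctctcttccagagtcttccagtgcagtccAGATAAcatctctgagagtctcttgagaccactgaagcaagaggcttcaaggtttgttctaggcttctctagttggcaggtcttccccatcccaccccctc
SPTB: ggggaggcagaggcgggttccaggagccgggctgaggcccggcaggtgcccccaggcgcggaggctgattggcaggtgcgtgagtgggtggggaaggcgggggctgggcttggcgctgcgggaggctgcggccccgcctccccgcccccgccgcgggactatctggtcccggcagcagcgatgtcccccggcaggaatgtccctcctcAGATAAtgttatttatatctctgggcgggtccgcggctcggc

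Whole-number counts summed to 8788816 to 9537470 per library, and 12282 genes passed the filter. Estimated counts summed to 17228254 to 18689560, with 12764 genes passing. The ZNF410 transcript was lower in every knockout library, with 38.1 and 33.9 CPM (counts scaled to library size) in the controls against 17.0 to 24.5 in the edited cells. CHD4, a known ZNF410 target, stood at 589 and 666 CPM in the controls and at 284 to 325 in the knockout libraries. All 8 erythroid markers were detected. Their summed CPM was 3444 to 3987 in the replicate 1 libraries and 6172 to 7527 in the replicate 2 libraries. Of the 8, 7 were higher in replicate 2 in every group, and GATA1, an erythroid transcription factor, was lower by CPM in every group, with 2371, 2688 and 2681 reads in replicate 1 and 2316, 2500 and 2446 in replicate 2. The 5 megakaryocyte markers summed to 30.6 to 37.8 CPM in replicate 1 and to 5.38 to 8.79 in replicate 2, with PF4 and GP9 at 0 counts in all 6 libraries. The lower sum in replicate 2 came from ITGA2B, with 249, 328 and 304 reads in replicate 1 and 28, 44 and 56 in replicate 2, while GP1BA had 11 to 25 reads with no common direction. The 5 lymphocyte markers summed to 13.3 to 21.4 CPM in replicate 1 and 3.56 to 5.32 in replicate 2, with MS4A1 at 0 and CD3D making up most of the replicate 1 sums. The erythroid, megakaryocyte and lymphocyte sums moved with the replicate number. Within each number the control also had the lowest erythroid sum, 3444 and 6172 CPM, and the lowest megakaryocyte sum, 30.6 and 5.38 CPM. The lymphocyte sum had no such order. The 4 fibroblast and epithelial markers, with KRT5 at 0, moved with the genotype. They summed to 1.04 to 1.26 CPM in the controls and 1.63 to 3.19 in the knockout libraries. COL1A1 had 8 to 14 reads in the knockout libraries against 0 and 1 in the controls. The part of these levels in the results was not tested. In bulk RNA, fewer cells of a type and less RNA per cell cannot be told apart.

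Transcript levels of the 8 genes spanned a wide range. Levels between genes are given as TPM, transcript abundance scaled by length and library size. GYPC was the highest member in all 6 libraries, at 273 to 297 TPM, with a control mean of 286 ± 16.2 (SD, n = 2). GYPB, at 58.4 to 142 TPM, EPB41, at 70.8 to 122 TPM, and ANK1, at 50.1 to 94.1 TPM, followed, and their ranges overlapped. The GYPB level is uncertain. Its transcript of 529 bases leaves an effective length of only 228 to 241 bases after the fragment size is taken off. SPTB reached 29.4 to 72.6 TPM and GYPE 35.1 to 59.3 TPM, again overlapping. EPB42 at 1.52 to 3.65 TPM and SLC4A1 at 0.75 to 4.05 TPM were the lowest members in every library, with overlapping ranges, and their control means were 1.95 ± 0.608 and 1.57 ± 1.09 (SD, n = 2). The scarce pair of transcripts was thus that of the anion exchanger and its EPB42 partner.

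**Figure D1:**
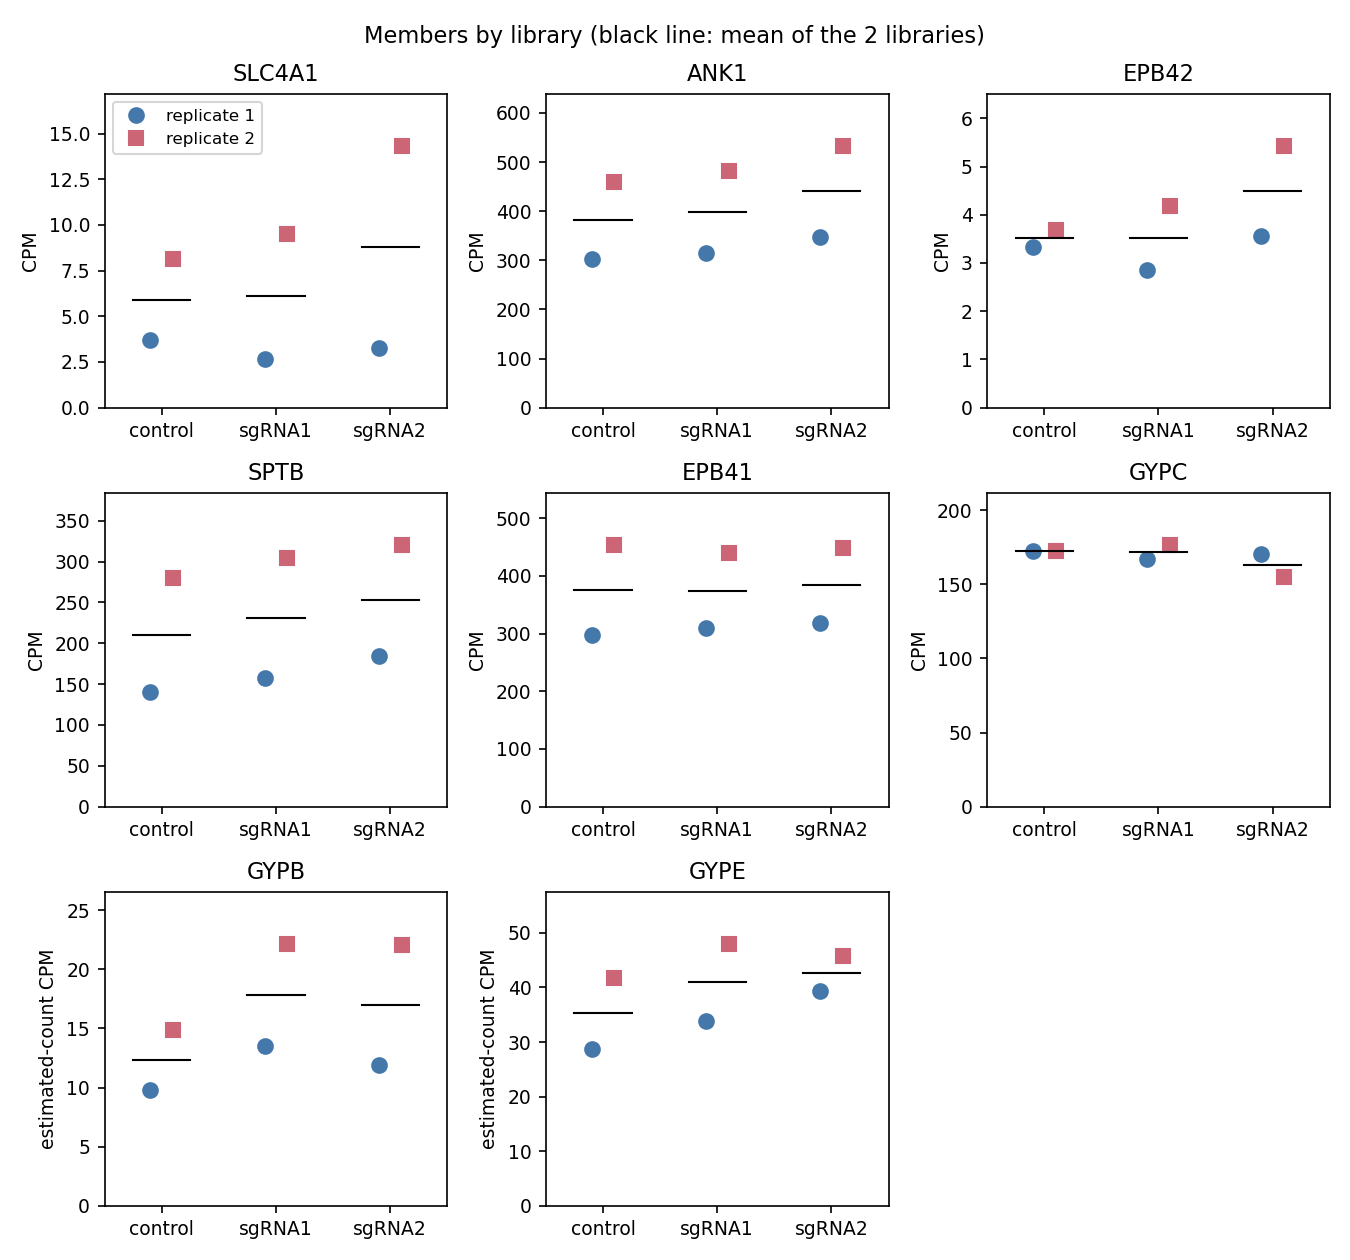
CPM of each gene (vertical axes, linear and from 0) in the 6 libraries by group, with circles for replicate 1, squares for replicate 2 and a black line at the mean of both; GYPB and GYPE are from estimated counts. Squares stood above circles in every group except for GYPC, whose 6 libraries lay between 155 and 177 CPM.

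The largest differences among these genes followed the replicate number and not the guide. In replicate 2 libraries, 6 of the 8 genes were higher than in replicate 1 and 0 were lower by edgeR's quasi-likelihood test with Benjamini-Hochberg adjustment over all genes. SLC4A1 rose 3.29-fold, SPTB 1.89-fold, GYPB 1.67-fold, ANK1 1.53-fold, EPB41 1.45-fold and GYPE 1.33-fold, while GYPC did not pass and EPB42 passed only from estimated counts. The change was widespread: 45.0% of all tested genes were called in either direction from whole-number counts, 21.6% higher, and 52.6% from estimated counts, 25.5% higher. The median log2 difference was 0.57 over the 8 genes and -0.0043 over all genes tested from whole-number counts. All 3 replicate 2 libraries lay above all 3 replicate 1 libraries for 7 of the 8 genes, a placement found for 25.6% of tested genes by CPM and 28.2% by estimated CPM. All 6 calls held when any 1 library was left out.

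Between knockout and control fewer of the genes passed. Without regard to the replicate number, 0 of the 8 genes passed the edgeR test between the 4 knockout and 2 control libraries (adjusted p at least 0.9998), beside 0% of all tested genes in either table. Without the block DESeq2 also called 0 of the 8, beside 0.155% of genes from whole-number counts and 0.165% from estimated counts, and limma 0 of the 8, beside 0.00846%. At an unadjusted p under 0.05, 0 of the 8 passed, beside 2.31% of genes from whole-number counts and 2.48% from estimated counts. Libraries with the same number deviated together, so the number was also entered as a replicate block. With this block GYPB alone rose, by 0.48 on the log2 scale (SE 0.108, adjusted p = 0.03054, 1.40-fold), beside 3.04% of tested genes called from estimated counts, 1.97% higher, and 1.84% from whole-number counts, 1.19% higher. DESeq2 with the block called GYPB alone of the 8 (adjusted p = 0.03667), beside 2.88% of genes from estimated counts and 1.37% from whole-number counts, as did limma (adjusted p = 0.03798), beside 1.64%. At an unadjusted p under 0.05, 4 of the 8 passed with the block, beside 12.9% of genes from whole-number counts and 15.5% from estimated counts. The median over the 8 genes was 0.20 on the log2 scale and 0.0045 over all genes. Each of 4 genes, ANK1, SPTB, GYPB and GYPE, was higher than the control of its own number in 4 of 4 knockout libraries, as were 16.2% of tested genes by CPM and 17.0% by estimated CPM. The guides share their control libraries.

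**Figure D2:**
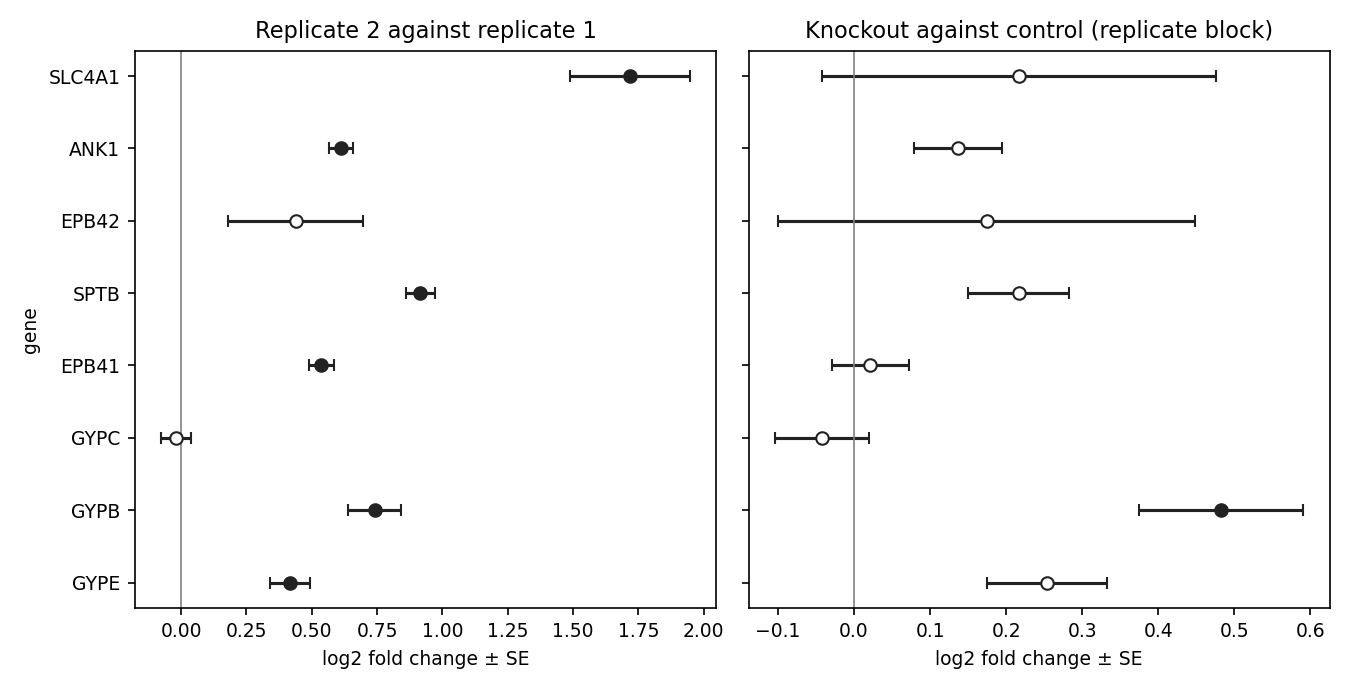
Log2 fold change ± SE of each gene (vertical axis) for replicate 2 against replicate 1 (left) and for knockout against control with the replicate block (right, on a narrower scale); filled points passed an adjusted p under 0.05 and open points did not. In the left panel SLC4A1 lies farthest out at 1.72, and in the right panel GYPB alone passes, at 0.48.

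SLC4A1, the chloride and bicarbonate exchanger, was measured on few reads, 24 to 132 per library. In replicate 1 the control stood at 3.69 CPM, sgRNA1 at 2.64 and sgRNA2 at 3.24, and in replicate 2 the values were 8.12, 9.53 and 14.3 in that order. The replicate 1 values were low and close together, and all 3 replicate 2 values lay above them. The difference between the numbers was 1.72 on the log2 scale (SE 0.229, adjusted p = 3.583e-05), the largest of the 8. Its knockout difference was 0.22 with the block (SE 0.259, adjusted p = 0.7879). In replicate 1 both guides lay below their control, by log2 differences of -0.48 and -0.19, and in replicate 2 both lay above, by 0.23 and 0.82. A test of whether the knockout difference itself depended on the number gave 0.88 (SE 0.483, adjusted p = 0.6631), so this turn did not exceed the spread.

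ANK1 (chr8:41653225-41896741) encodes the adaptor between spectrin and membrane proteins. In replicate 1 its control level was 303 CPM, beside 315 under sgRNA1 and 348 under sgRNA2. In replicate 2 the same groups gave 459.8, 482 and 533 CPM. Within each number the order was control, sgRNA1, sgRNA2, and the numbers did not overlap. Replicate 2 was higher by 0.61 on the log2 scale (SE 0.0459, adjusted p = 1.608e-07), and the 3 groups gave nearly the same difference, 0.60, 0.61 and 0.62. The knockout difference with the block was 0.14 (SE 0.0577, adjusted p = 0.3203), and sgRNA2 exceeded sgRNA1 by 0.14 (SE 0.0560, unadjusted p = 0.02181), which did not pass over all genes (edgeR adjusted p = 0.9994). An annotated antisense transcript overlaps 842 bases of ANK1 exons, and without a known strand setting reads there could belong to either.

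EPB42, whose product steadies the link of ankyrin to the exchanger, had only 26 to 50 reads per library. Replicate 1 gave 3.34 CPM for the control, 2.86 for sgRNA1 and 3.56 for sgRNA2, and replicate 2 gave 3.69, 4.19 and 5.43 in that order. Each replicate 2 library lay above every replicate 1 library, by little in the controls. From whole-number counts the replicate difference was 0.44 (SE 0.258, adjusted p = 0.1816), and from estimated counts it was 0.75 and passed (SE 0.190, adjusted p = 0.005063). The knockout difference with the block was 0.17 (SE 0.274, adjusted p = 0.8529) from whole-number counts and 0.49 (SE 0.196, adjusted p = 0.2382) from estimated counts, where that of GYPB was 0.48. A transcript on the same strand overlaps 447 bases of its exons, and the ratio of whole-number to estimated counts ran from 0.396 to 0.707 between libraries.

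SPTB encodes beta-spectrin, a main strand of the mesh. Its replicate 1 level was 140.4 CPM in the control, 157 under sgRNA1 and 184 under sgRNA2, and its replicate 2 level 279.9, 305 and 320.5 in the same groups. Each replicate 2 library held more than any replicate 1 library, and within a number sgRNA2 was highest and the control lowest. The replicate difference was 0.92 (SE 0.0550, adjusted p = 1.79e-08). The SPTB knockout difference with the block was 0.22 (SE 0.0668, adjusted p = 0.1405). With sgRNA2 alone it was 0.29 (SE 0.0670, adjusted p = 0.05038), which passed from estimated counts at 0.29 (adjusted p = 0.02506). PLEKHG3 on the opposite strand overlaps 3408 bases of SPTB exons, so the SPTB count may hold reads of both.

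EPB41 encodes the junction protein that joins spectrin to actin. For replicate 1 the control, sgRNA1 and sgRNA2 libraries held 298, 309 and 319 CPM, and for replicate 2 they held 454, 439 and 449. The 3 groups were nearly level within a number. The replicate difference was 0.54 (SE 0.0482, adjusted p = 8.718e-07), while the knockout difference with the block was 0.02 (SE 0.0505, adjusted p = 0.9114). TMEM200B on the opposite strand overlaps 619 bases of EPB41 exons. Among the 28 pairs of the 8 genes, ANK1 and EPB41 had the nearest patterns over the 6 libraries, with a root mean square difference of 0.0826 in centred log2 CPM.

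GYPC encodes the glycophorin that anchors the junction to the membrane. Both controls held 172 CPM. The sgRNA1 libraries held 167 and 177 CPM in replicates 1 and 2, and the sgRNA2 libraries 170.3 and 155. These values overlapped between numbers and between groups. The replicate difference was -0.02 (SE 0.0568, adjusted p = 0.8157) and the knockout difference with the block -0.04 (SE 0.0618, adjusted p = 0.8375). The SE of both was near 0.06, against differences of 0.42 to 1.72 between the numbers for the 6 called genes.

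**Figure D3:**
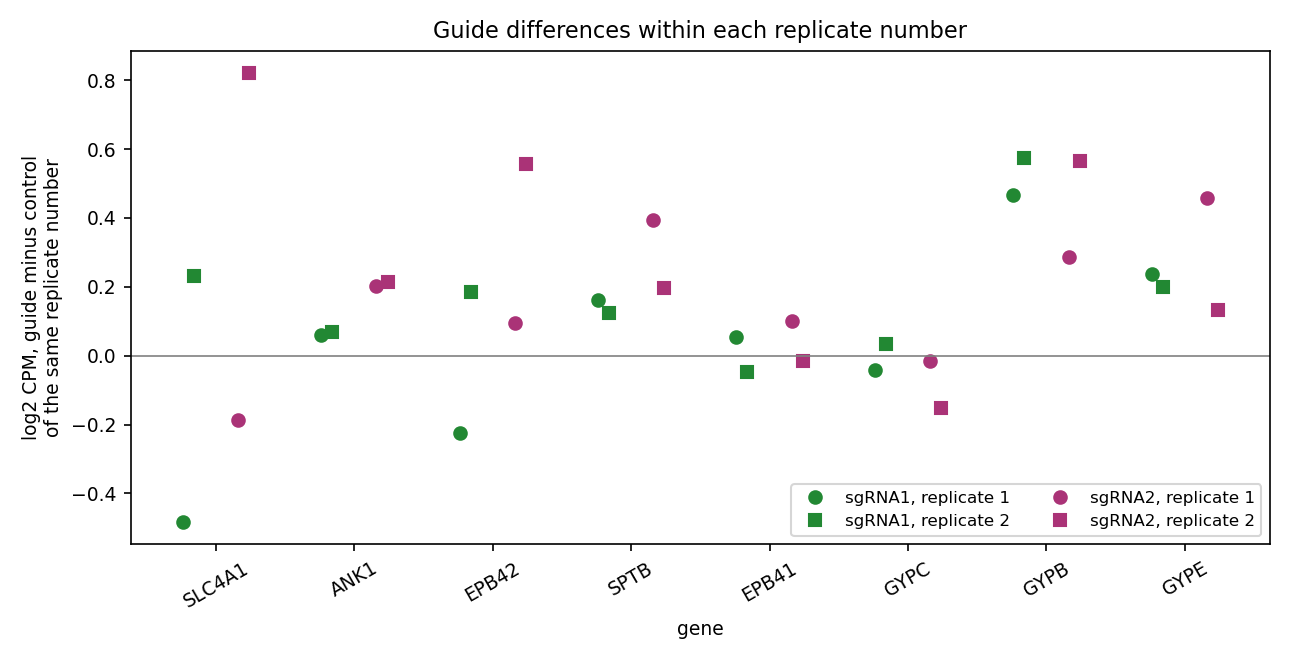
Log2 CPM of each knockout library minus the control of the same replicate number (vertical axis) for each gene, with green for sgRNA1, purple for sgRNA2, circles for replicate 1 and squares for replicate 2. All 4 points lie above 0 for ANK1, SPTB, GYPB and GYPE, and SLC4A1 spreads from -0.48 to 0.82.

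GYPB was the only one of the 8 called for the knockout with the block. Its estimated-count CPM in replicate 1 was 9.78 in the control, 13.5 under sgRNA1 and 11.9 under sgRNA2, and in replicate 2 it was 14.9, 22.2 and 22.0. Each knockout library exceeded the control of its own number, by log2 differences of 0.29 to 0.57, though the replicate 1 knockout values lay below the replicate 2 control. The replicate difference was 0.74 (SE 0.101, adjusted p = 5.371e-05). The knockout call rested on few libraries. It held in 1 of 6 fits with the block that left out a library, that without sgRNA2 replicate 1 (adjusted p = 0.02563). It was lost without either control, either sgRNA1 library or sgRNA2 replicate 2, with log2 differences of 0.38 to 0.57 over the 6 fits and adjusted p up to 0.2264. By guide, with the block, GYPB differed by 0.53 with sgRNA1 (SE 0.125, adjusted p = 0.06229) and by 0.44 with sgRNA2 (SE 0.125, adjusted p = 0.09871), neither of which passed.

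GYPE encodes a glycophorin-like protein whose presence on the red cell is not established. Its estimated-count CPM in replicate 1 was 28.7 in the control, 33.8 under sgRNA1 and 39.4 under sgRNA2, and in replicate 2 it was 41.8, 48.0 and 45.8. The numbers did not overlap, but sgRNA2 replicate 1 came close to the replicate 2 control. The replicate difference was 0.42 (SE 0.0758, adjusted p = 0.0005203), the smallest of those called. The knockout difference with the block was 0.25 (SE 0.0788, adjusted p = 0.1207), and ran from 0.17 without control replicate 1 to 0.35 without control replicate 2.

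By single guide without the block 0 of the 8 passed for either guide, beside 0% of all tested genes from whole-number or estimated counts. With the block, 0 of the 8 genes were called for sgRNA1, beside 0.879% of genes from whole-number counts and 1.39% from estimated counts. For sgRNA2 it was again 0 of 8, each gene read from its own table, beside 1.38% and 2.26%, and 1 of 8, SPTB, when all were read from estimated counts. At an unadjusted p under 0.05 the numbers were 2 of 8 for sgRNA1, beside 9.91% and 11.9% of genes from the same tables, and 4 of 8 for sgRNA2, beside 12.3% and 14.6%. Between sgRNA2 and sgRNA1, 0 of the 8 passed (adjusted p at least 0.9776), beside 0.0896% and 0.0548% of genes, with 2 of 8 at an unadjusted p under 0.05 beside 4.39% and 4.55%. For the knockout difference by replicate number, 0 of 8 passed (adjusted p at least 0.6631), beside 0.244% and 0.110% of genes, and 0 of 8 at an unadjusted p under 0.05, beside 8.35% and 9.39%.

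Of the partners of the exchanger and ankyrin (RHAG, RHCE, RHD, ICAM4, CD47 and CA2), 5 of 6 were tested and CA2 fell under the filter. In replicate 2, 1 was higher and 1 lower than in replicate 1, so 2 of 5 were called beside 45.0% of all tested genes. RHAG, the Rh-associated glycoprotein, differed by 0.26 (adjusted p = 0.0005592), and CD47, an integrin-associated protein of the Rh complex, by -0.40 (adjusted p = 0.0008537). With the block, CD47 fell in the knockout by 0.40 (SE 0.0879, adjusted p = 0.03093) and 0 rose, so 1 of 5 was called beside 1.84%. The call on CD47 was lost without control replicate 1 or either sgRNA2 library, with adjusted p up to 0.3853. Median differences over the 5 tested genes were 0.0949 by number and 0.0041 by knockout.

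All 12 genes of the list for the spectrin and actin junction were tested, 5 higher and 5 lower in replicate 2, beside 45.0% of all tested genes called and 21.6% called higher, with a median of 0.0528. SLC2A1, the glucose transporter, differed by 0.68 (adjusted p = 5.178e-07), ADD2, beta-adducin, by 0.59 (adjusted p = 2.133e-06) and MPP1, a scaffold protein that binds glycophorin C, by -0.38 (adjusted p = 4.448e-05). DMTN, dematin, did not pass (-0.07, adjusted p = 0.702). In the knockout ADD2 alone rose with the block, by 0.27 (SE 0.0617, adjusted p = 0.03258), beside 1.84% of tested genes called, and the median was 0.0064. The ADD2 call held in 2 of 6 fits, those without control replicate 2 and without sgRNA2 replicate 2, with adjusted p up to 0.4145 in the others. DMTN differed by 0.15 (adjusted p = 0.7071).

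Other red-cell membrane proteins numbered 16 tested of 20, with ART4, CD44, ABCG2 and SLC14A1 under the filter. By number 6 were higher and 5 lower, beside 45.0% of all tested genes called and 21.6% called higher, with a median of 0.26. ERMAP, a blood group protein of the butyrophilin family, differed by 1.01 (adjusted p = 9.326e-09), CD55, the decay-accelerating factor, by -1.14 (adjusted p = 9.04e-09) and BCAM, the Lutheran adhesion protein, by -2.49 (adjusted p = 3.587e-05). In the knockout with the block 2 rose and 0 fell, beside 1.84% called and 1.19% called higher, with a median of 0.09. AQP1, the water channel, rose by 1.26 (SE 0.127, adjusted p = 6.488e-05), from 17.9 and 27.8 CPM in the controls to 48.5 to 59.8 in the knockout libraries, and kept its call without any 1 library. ABCB6, a transporter that carries the Lan blood group, rose by 0.45 (SE 0.0963, adjusted p = 0.02568), a call held only without control replicate 1 or sgRNA1 replicate 1.

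Relatives of the members used outside red cells gave 10 tested genes of 13, with SLC4A3, ANK2 and ANK3 under the filter. By number 2 were higher and 2 lower, a share of the list close to the 45.0% over all tested genes, with a median of -0.04. The largest called were EPB41L2, a relative of EPB41, at -0.34 (adjusted p = 0.0001909), SLC4A2, a relative of SLC4A1, at 0.28 (adjusted p = 0.0002916) and EPB41L3 at -0.23 (adjusted p = 0.007648). In the knockout with the block 0 rose and 2 fell, beside 1.84% called over all tested genes, with a median of -0.17. EPB41L2 fell by 0.38 (SE 0.0561, adjusted p = 0.002083) and SPTBN1, the beta-spectrin of other tissues, by 0.25 (SE 0.0537, adjusted p = 0.02399). The EPB41L2 call was lost without control replicate 2 (-0.29, adjusted p = 0.05334), and that of SPTBN1 without control replicate 2 or either sgRNA1 library (adjusted p up to 0.2255). EPB41 and SPTB themselves did not pass in the same fit.

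**Figure D4:**
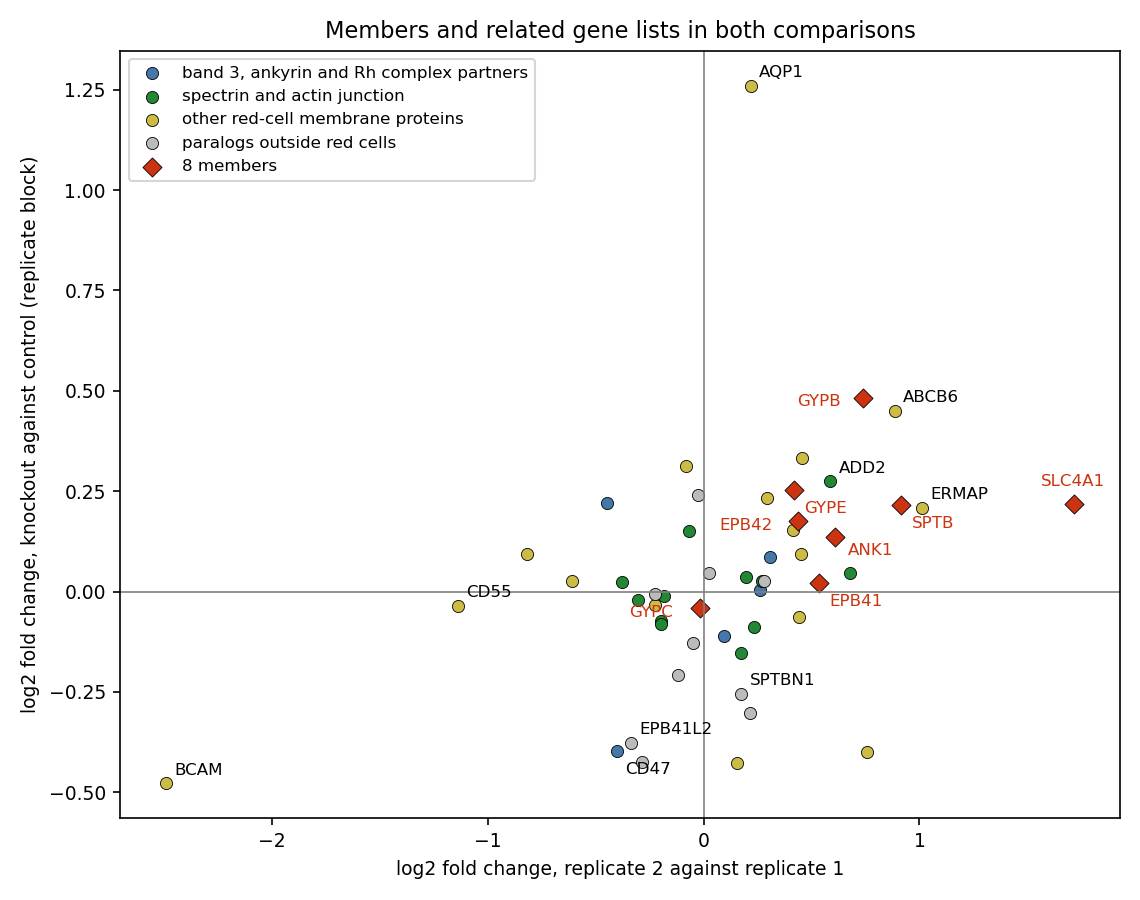
Log2 fold change for replicate 2 against replicate 1 (horizontal axis) and for knockout against control with the replicate block (vertical axis) for the 8 genes (red diamonds) and the tested genes of the 4 related lists (circles, coloured by list). Most of the 8 lie to the right of 0, GYPC lies near 0 on both axes, and AQP1 stands highest at 1.26.

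For each of the 8 genes the nearest patterns over the 6 libraries were sought among 9965 genes averaging 50 counts or more, by the root mean square difference of centred log2 CPM. EPB41 had the closest single neighbour, UTP20 at 0.0089, followed by PI4KB at 0.0222 and COA7 at 0.0232. The nearest to GYPC were PA2G4 at 0.0165, PPIL1 at 0.0217 and C19orf43 at 0.0238. Those to ANK1 were REV3L at 0.0260, NOL9 at 0.0342 and ZNF587 at 0.0369. SPTB lay nearest to DNAJA4 at 0.0422, TNS3 at 0.0558 and SMCR8 at 0.0620. GYPE lay nearest to EHD1 at 0.0517, TRIM58 at 0.0569 and POLR2L at 0.0585, and EPB42 to SLC25A51 at 0.0538, RPL36A at 0.0544 and ZNF780B at 0.0611. GYPB lay nearest to SELENBP1 at 0.0890, AKAP12 at 0.0935 and AMHR2 at 0.111, and SLC4A1 to LINC01311 at 0.150, UNC13A at 0.197 and ERVK13-1 at 0.220. All values share the same 6 libraries.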

How the data were processed

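RNA-seq of 6 K562 libraries was used. Per the submitters' processing notes the tools included Trim Galore, HISAT2 2.2.1, SAMtools 1.9, HTSeq 0.6.1, RSEM 1.3.2 and DESeq2 1.36.0 on hg38; which made which file, and the strand setting, are not given in the sources used here. The deposited whole-number counts per symbol came with 5 rows that name no gene, 61.6% to 62.6% of each table's total, which were left out. Per the file headers the second deposited table holds estimated counts with TPM and FPKM values, both scaled by the authors for length and library size. Estimated counts were rounded before testing.

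The main test was edgeR 4.0.16 in R 4.3.3 (quasi-likelihood F-test, TMM scaling, filterByExpr by group), with Benjamini-Hochberg adjusted p under 0.05 over all genes. Design terms were genotype or group, and number with group as a term for the replicate comparison. SE was taken as the absolute log2 difference over the root of the F statistic. GYPB and GYPE used estimated counts, other genes whole-number counts. Printed CPM values are TMM-scaled. Deviations of same-numbered libraries from their group means correlated at 0.813, 0.759 and 0.826 for the 3 pairs of groups over 9966 genes, a pairing taken from the data and not from the labels, so blocked values are printed. Libraries of a group differed beyond sampling noise (chi-square per degree of freedom 22.3 to 26.8). Alternatives were limma 3.58.1 on log2(FPKM + 1) and log2(FPKM + 0.1), with a mean FPKM of at least 0.5 in the filtered fits, DESeq2 1.42.0, DESeq2 size factors within edgeR, no filter, estimated counts for all genes, the block, and leaving out each library. The fit was tested on simulated data. Per-guide fits with the block for each of the 8 genes were chosen after seeing the data. The genes named are the 8, ZNF410 and CHD4, list genes called with the block, the 3 list genes called by number with the largest change, complex partners (RHAG, ADD2, DMTN) and 3 nearest patterns per gene. The 8 genes and the lists were chosen with earlier results of these data known. Some related genes are not reported here.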

Additional observations from a re-analysis of the deposited data

Results flagged for a closer look

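SLC4A1 and EPB41 drew attention because both guides moved one way in 1 replicate number and the opposite way in the other. The mean knockout minus control log2 CPM of SLC4A1 was -0.334 in replicate 1 and 0.526 in replicate 2. That of EPB41 was 0.0773 in replicate 1 and -0.0316 in replicate 2. The difference between the numbers was tested with edgeR's quasi-likelihood test and did not pass for either gene, at 0.88 for SLC4A1 (adjusted p = 0.6631) and -0.11 for EPB41 (adjusted p = 0.8123). The SLC4A1 values rest on 24 to 132 reads per library.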

How the results depend on the processing

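For knockout against wild type, 0 genes were called in all; the count was 226 with a replicate block, 19 with DESeq2, 162 with DESeq2 and the replicate block, 1 with no filter, and 0 to 2 when a library was left out (unadjusted p under 0.05: 284 genes). The replicate block brought the sgRNA1 count to 108, the sgRNA2 count to 170 and that between guides to 11, against 0 without it; leaving out a library without the block gave 0 for each guide. By replicate number DESeq2 called 3438 genes against 5529. The block gave GYPB its call and changed no other call among the 8 genes in the main tables; with the block CD47 (adjusted p = 0.06459) and ABCB6 (0.07211) lost their calls with DESeq2, and ADD2 (0.1227) and SPTBN1 (0.1579) with limma. For sgRNA1 with the replicate block SLC4A1 turned to -0.0452, EPB42 to -0.0084 and EPB41 to 0.0015, and from estimated counts EPB41 to 0.0102 and GYPC to 0.0243; the replicate difference of GYPC turned to 0.0045 from estimated counts. Leaving out a library moved the knockout difference without the block from -0.14 to 0.47 for ANK1, -0.27 to 0.35 for EPB41, -0.22 to 0.78 for SPTB, -0.20 to 1.01 for SLC4A1, 8.97e-05 to 0.54 for GYPE, 0.22 to 0.83 for GYPB and -0.0658 to 0.67 for ADD2, the lowest for ANK1, EPB41, SPTB, GYPE and GYPB without control replicate 1 and the highest without control replicate 2. With the replicate block the ranges were -0.0372 to 0.0776 for EPB41, -0.32 to 0.55 for SLC4A1 and -0.0560 to 0.37 for EPB42. Within them SLC4A1 was -0.0239 without sgRNA2 replicate 2 and EPB41 -0.00083 without sgRNA2 replicate 1. The GYPC replicate difference ran from -0.0667 to 0.0430. The cause of these turns was not tested. EPB41L3 lost its call by number with DESeq2 (adjusted p = 0.08795). Depth limits SLC4A1 and EPB42, with at most 132 and 50 reads.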
